A study of Mus musculus with 24 samples.

Results

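The genes for neurotrophins and their receptors were examined for DNA methylation in the dentate gyrus, the part of the hippocampal formation that keeps producing neurons in adult mice. The 7 genes were the neurotrophin genes Ntf3 and Ntf5, the receptor genes Ntrk2, Ntrk3 and Ngfr, the sorting receptor gene Sort1 and the neurotrophin-induced gene Vgf. Their members were every row of the methylation table inside the GENCODE M21 span of a gene or within 2 kb of it, which gave 479 cytosines of 694379. Micro-dissected tissue of 24 female C57BL/6JRj mice, for which the labels name no transgene or deletion, was profiled by reduced representation bisulfite sequencing (RRBS), which enriches for CpG-rich fragments and reads unmethylated cytosines as thymine. The groups, of 8 mice each, were young mice aged 3 months in standard housing (Young STD), aged mice of 17 months in standard housing (Aged STD), and aged mice of 17 months of which 3 months were spent in environmental enrichment, that is, in housing with more space and changing objects (Aged ENR). Whole dentate gyrus was used, so the methylation of a site is an average over granule neurons, other neurons and glia, and a change in the mixture of cell types and a change within a cell type cannot be told apart.

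Neurotrophins are small secreted growth factors that keep neurons alive and shape their synapses. Each is cut from a larger precursor and binds a Trk receptor tyrosine kinase, which signals for survival and growth, or the p75 neurotrophin receptor, which can signal for cell death when it binds a precursor together with sortilin. In the dentate gyrus these factors are known for their part in synaptic plasticity and in the survival of newborn neurons. Methylation at a CpG-rich promoter usually goes with a silent gene, whereas methylation in a gene body is common in active genes too, and none of these values measures expression.

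The members fell into 225 promoter cytosines, within 1 kb of the start of any transcript of the gene, 249 gene body cytosines, elsewhere in the span, and 5 cytosines outside the span, all downstream of Ntf5. Ntrk2 had 126 cytosines, Vgf 86, Ntf3 and Sort1 73 each, Ntrk3 55, Ngfr 41 and Ntf5 25. They lay in 87 stretches, with gaps of at most 200 bp within a stretch, so neighbouring cytosines share fragments and are not independent. All 479 stood at a CG of the reference genome, and 53 of the 426 CpG sites were measured on both strands. The strands differed by a median of 2.40 percentage points at these sites, and by under 5 points at 38 of them. A member cytosine had a value in a median of 14 mice, from 9 to 23, and in no case in all 24. The study's methods set a minimum coverage per cytosine, but the number of reads behind each value is unknown. No interval for a single value can thus be given, and 83.5% of the values were exactly 0 or 100. A mouse covered 244 to 369 member cytosines in Young STD, 225 to 412 in Aged STD and 174 to 425 in Aged ENR. Aged STD replicate 5 stood apart over the genome, with a mean of 49.9% over 4299 gene bodies against 53.7 to 57.8% in the other mice.

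The sequences below are the GRCm38 reference on the strand of each gene, read 5′ to 3′, with measured CpG sites in capitals. The first group holds the CpG-rich windows at which the genes were nearly unmethylated in every group.
Ntf3, upstream of its second transcript start (chr6:126164961-126165080, minus strand): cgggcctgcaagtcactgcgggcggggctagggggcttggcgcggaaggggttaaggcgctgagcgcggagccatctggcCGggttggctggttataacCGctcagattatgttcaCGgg
Ntrk3, near a transcript start in intron 1 (chr7:78577275-78577418, minus strand): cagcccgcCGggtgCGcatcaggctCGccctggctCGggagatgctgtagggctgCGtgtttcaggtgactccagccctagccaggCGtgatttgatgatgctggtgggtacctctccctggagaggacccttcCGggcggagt
Ngfr, upstream of the gene start (chr11:95587736-95587955, minus strand): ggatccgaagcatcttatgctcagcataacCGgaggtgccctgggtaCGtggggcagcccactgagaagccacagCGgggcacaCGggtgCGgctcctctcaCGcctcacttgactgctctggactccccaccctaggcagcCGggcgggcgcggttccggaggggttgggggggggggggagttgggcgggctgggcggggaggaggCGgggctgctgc
Sort1, upstream of the gene start (chr3:108283752-108283901, plus strand): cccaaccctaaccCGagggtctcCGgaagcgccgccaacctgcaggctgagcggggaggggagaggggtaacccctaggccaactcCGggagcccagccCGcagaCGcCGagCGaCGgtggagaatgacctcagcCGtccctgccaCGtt
Vgf, coding exon 5 (chr5:137032602-137032730, plus strand): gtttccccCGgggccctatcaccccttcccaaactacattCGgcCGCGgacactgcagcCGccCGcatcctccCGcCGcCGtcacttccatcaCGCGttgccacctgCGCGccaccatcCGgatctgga

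The median level of the measured cytosines was 0.588% in the Ntf3 window, 0% in those of Sort1 and Vgf, 0.176% in that of Ntrk3 and 0.768% in that of Ngfr. The highest single cytosine had 17.6% in the Ngfr window, 13.7% in that of Vgf, 6.11% in Sort1, 5.25% in Ntf3 and 5.01% in Ntrk3. The Vgf window lies in coding sequence and holds 14 CpG sites in 129 bases, 1.11 times the number its C and G content would give. That ratio was 0.92 in the Ntf3 window, 0.72 in that of Sort1, 0.59 in Ntrk3 and 0.57 in Ngfr.

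The second group holds windows in gene bodies with fewer CpG sites, where methylation was intermediate or high and where the largest differences of Sort1 and Ntf5 lay.
Sort1, intron 9 and exon 10 (chr3:108338744-108338824, plus strand): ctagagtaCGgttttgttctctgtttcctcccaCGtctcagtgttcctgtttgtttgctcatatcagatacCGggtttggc
Sort1, intron 10 and exon 11 (chr3:108340523-108340671, plus strand): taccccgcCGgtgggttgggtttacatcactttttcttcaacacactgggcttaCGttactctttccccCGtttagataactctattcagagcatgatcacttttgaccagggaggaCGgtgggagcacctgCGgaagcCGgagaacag
Sort1, intron 11 (chr3:108342414-108342491, plus strand): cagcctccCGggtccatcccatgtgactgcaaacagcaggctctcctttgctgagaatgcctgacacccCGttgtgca
Ntf5, intron 2 (chr7:45415054-45415114, plus strand): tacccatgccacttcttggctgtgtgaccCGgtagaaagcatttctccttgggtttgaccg
Ntrk2, intron 12 (chr13:58980094-58980170, plus strand): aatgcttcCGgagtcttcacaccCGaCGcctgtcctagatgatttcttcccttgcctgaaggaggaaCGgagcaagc

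The median level was 47.3% in the first Sort1 window, 82.8% in the second, 21.3% in the third, 40.4% at the single cytosine of Ntf5 and 87.8% in the Ntrk2 window. Every window printed here holds CCGG, a palindrome and the site at which the MspI enzyme of RRBS cuts. The windows were placed where cytosines were measured, and RRBS reads cytosines near such sites, so this follows from the method. Of the 300-base RefSeq promoter windows of GRCm38.p6, which were not chosen by coverage, 52.8% hold it.

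Methylation of the 7 genes followed CpG density. The 228 cytosines with at least 15 CpG sites in the surrounding 301 bases had a median level of 0%, and 217 of them were under 10%. The 167 cytosines with under 10 such sites had a median of 31.1%, and 35 of them were under 10%. Spearman's rho between level and density was −0.696 over the 479 cytosines, which share fragments and mice, and ranged from −0.767 in Ntrk3 to −0.468 in Ngfr. Few dense cytosines broke the pattern, and that with the highest level, 90.8%, lay in Sort1. Among sparse cytosines more did, and their share under 10% differed by gene. It was 5 of 9 in Ngfr, 4 of 10 in Ntf5, 12 of 33 in Ntf3 and 3 of 17 in Sort1. In Ntrk3 it was 4 of 26, in Ntrk2 7 of 71 and in Vgf 0 of 1. Over the whole table, where density was not computed, promoter cytosines had a median of 0.113% and gene body cytosines of 76.4%.

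**Figure D1:**
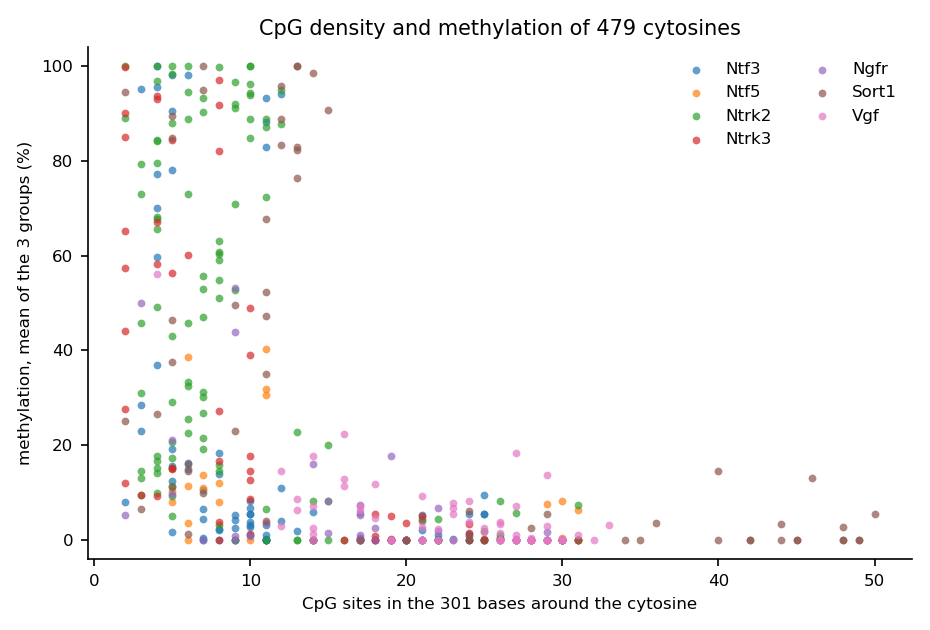
CpG density, as the number of CpG sites in the 301 bases around a cytosine (x axis), against methylation in percent as the mean of the 3 groups (y axis) for each of the 479 cytosines, coloured by gene. Of the 228 cytosines with at least 15 sites, 217 lie under 10%, whereas cytosines with under 10 sites spread from 0 to 100%.

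The genes differed in where methylation began. Ntf3 (ENSMUSG00000049107) encodes neurotrophin-3, the main ligand of TrkC, and spans chr6:126101412-126166910 on the minus strand. Its 2 promoter stretches had mean levels of 2.27% and 6.71%, and 24 cytosines of intron 2, between 3644 and 4341 bases from the outermost start, were as low, at 3.51%. In the same intron the level was 9.73% at 24678 to 24787 bases from that start and 95.5% at 34424 to 34580 bases. Coding exon 3 had 89.6% at 4 cytosines and 59.7% at another. Ntf3 was low at its starts, including the coding cytosines at the second start, and higher at the 5 measured cytosines of exon 3.

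Ntf5 (ENSMUSG00000074121) encodes neurotrophin-4, a ligand of TrkB, and spans only chr7:45413695-45417179 on the plus strand. The 16 cytosines upstream of its start had a mean level of 4.55%, the 4 in intron 2 of 28.5%, and the 5 downstream of the gene of 11%. Among the upstream cytosines, that at 45413346 stood out with group means of 58.2% in Young STD mice, 11.8% in Aged STD and 45.6% in Aged ENR, and it was named here after its values were seen.

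Ntrk2 (ENSMUSG00000055254) encodes TrkB, and Ntrk3 (ENSMUSG00000059146) encodes TrkC, the receptor of neurotrophin-3. Ntrk2 spans chr13:58806569-59133970 on the plus strand. Its promoter cytosines had a median level of 0%, and 43 of the 44 were under 10%. The exception was a sparse site 446 bases upstream of the start with 67.8%. In the Ntrk2 body 29 of 82 cytosines were over 80%, 35 between 20 and 80% and 5 under 10%, and the 3′ UTR had 93.5% at 7 cytosines. Ntrk3 spans chr7:78175959-78738012 on the minus strand, and all 22 of its promoter cytosines were under 10%. These lay 158981 to 160729 bases downstream of the outermost start, at internal starts, so the outermost start itself had no measured promoter cytosine. The Ntrk3 body stretches ranged from 3.44% at 4 cytosines of intron 1 to 99.7% at 1 cytosine of intron 3, and coding exon 18 had 93.3%.

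Ngfr (ENSMUSG00000000120) encodes the p75 neurotrophin receptor, which binds all neurotrophins, and spans chr11:95568818-95587735 on the minus strand. The promoter had a mean level of 2.59% at 17 cytosines, and the low level ran on through 3 stretches of intron 1 with 1.80%, 1.19% and 0%. Intron 3 had 33.6% at 4 cytosines and intron 5 had 21.7% at 3, and no Ngfr cytosine was over 80%. Sort1 (ENSMUSG00000068747) encodes sortilin, a co-receptor of p75 and a sorting receptor for neurotrophin precursors, and spans chr3:108284082-108361511 on the plus strand. Its 42 promoter cytosines, 28 of which also lie in the gene Gm12523, had a median level of 0%, and its body stretches ran from 9.26% at 4 cytosines of intron 1 to 97.5% at 2 cytosines of intron 10.

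Vgf (ENSMUSG00000037428) encodes a secretory granule protein whose peptides are released by neurons and whose transcription neurotrophins induce, and spans chr5:137026392-137033351 on the plus strand. Its measured body cytosines were low too: 28 of 29, all in exon 5, were under 10%, with a median of 0%. On the region scale explained next, the Vgf body had 1.09%, lower than all but 1.15% of the 12425 gene bodies of the table, where the median was 71.9%. The CpG density around these 29 cytosines was a median of 28 sites in 301 bases, against 24 at the promoter cytosines of the 7 genes. Of the 57 Vgf promoter cytosines 56 lay at internal starts, 3735 to 4957 bases from the outermost start, and the other, in intron 1, had 56.0%.

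**Figure D2:**
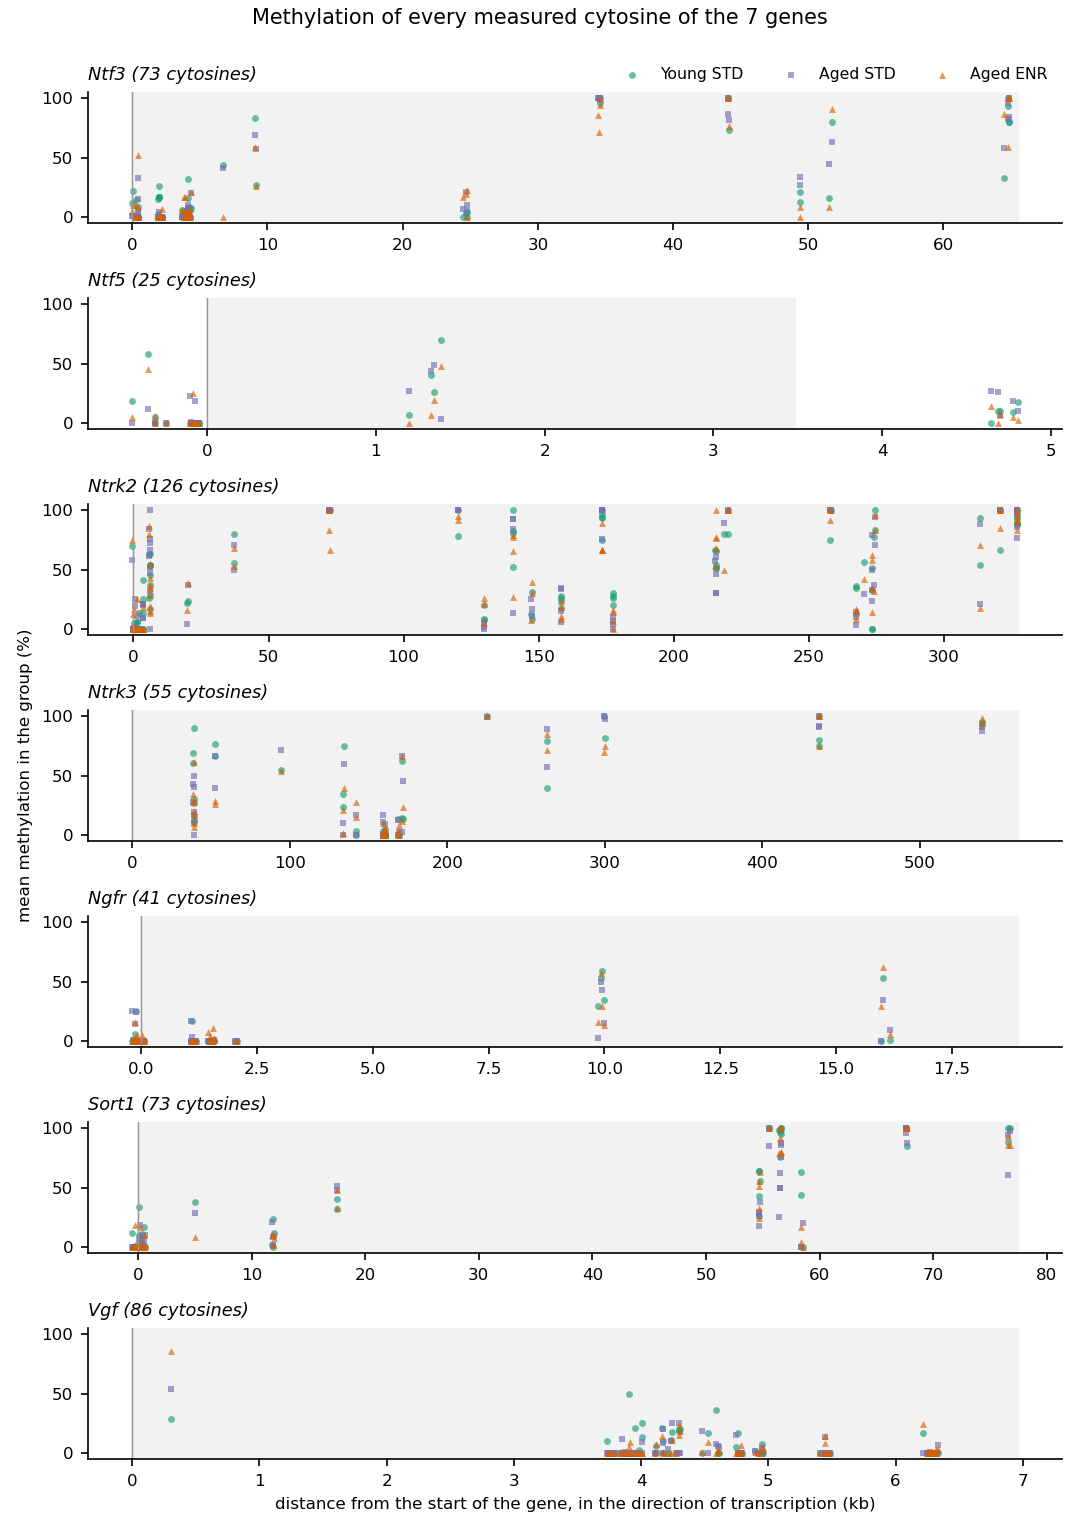
Mean methylation of each cytosine in Young STD mice (circles), Aged STD (squares) and Aged ENR (triangles) in percent against the distance from the outermost start of the gene in kb, with 1 panel for each of the 7 genes and the gene span shaded. Levels lie near 0% at the promoters, are under 10% at 77 of the 86 Vgf cytosines, and spread from 0 to 100% in the bodies of Ntrk2, Ntrk3, Ntf3 and Sort1, with the groups largely overlaid.

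To compare the groups with mice as replicates, a promoter value and a body value were computed for each gene and mouse. Because each mouse covers other cytosines, the value is the mean deviation of its covered cytosines from their mean over the groups, added to the mean level of the region. It can thus fall below 0% or above 100%. A mouse needed 3 covered cytosines in the region. Differences were tested with limma over the 30830 promoters and bodies of all genes with Benjamini-Hochberg adjustment, and called at an adjusted p under 0.05. The aging difference is Aged STD minus Young STD and the ENR difference is Aged ENR minus Aged STD. Both use the same Aged STD mice, so the values of a region are given side by side and are not independent.

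None of the 14 regions was called in either comparison, and few regions of any gene were, 0.00324% for aging and 0.00973% for ENR. At an unadjusted limma p under 0.05 there was 1 of 14 for aging, the Sort1 body, and 0 of 14 for ENR, against 5.5% and 4.66% of all regions. Exact two-sided permutation tests over the mice, unadjusted, gave the same counts of 1 and 0. The limma count for aging was 3 without Aged STD replicate 3, where the Ntf5 promoter and the Ngfr body joined the Sort1 body. It was 2, with the Ntf5 promoter, without Young STD replicate 1, without Aged STD replicate 6, with promoters at the gene start only and with no minimum of cytosines. For ENR it was 1 with promoters at the gene start only or without Aged STD replicate 3 (the Ntf5 promoter), without replicate 5 (the Ntrk2 body) or without replicate 8 (the Sort1 body). Leaving out 1 mouse moved the difference by over 1.5 times or turned its sign in 12 of 14 regions for aging and in 14 of 14 for ENR, so the range over the mice left out in turn is given with each region. Of the other settings, limiting cytosines to those with 5 or more mice per group moved 7 of 13 regions as far for aging and 11 of 13 for ENR. A plain mean of covered cytosines in place of deviations moved 7 of 14 and 7 of 14, and promoters at the gene start only, which also changes the bodies, moved 7 of 12 and 6 of 12. These values are given with the regions that moved. The 7 promoters had a median aging difference of −0.577 points and a median ENR difference of −0.23 points, against 0 and −0.155 points over 18405 promoters. For the 7 bodies the medians were −2.02 and −2.07 points, against −0.49 and −0.373 points over 12425 bodies. Of the 7 bodies 5 were lower in Aged STD than in Young STD mice and 4 were lower in Aged ENR than in Aged STD, and of all bodies 54.6% and 54.1% were.

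**Figure D3:**
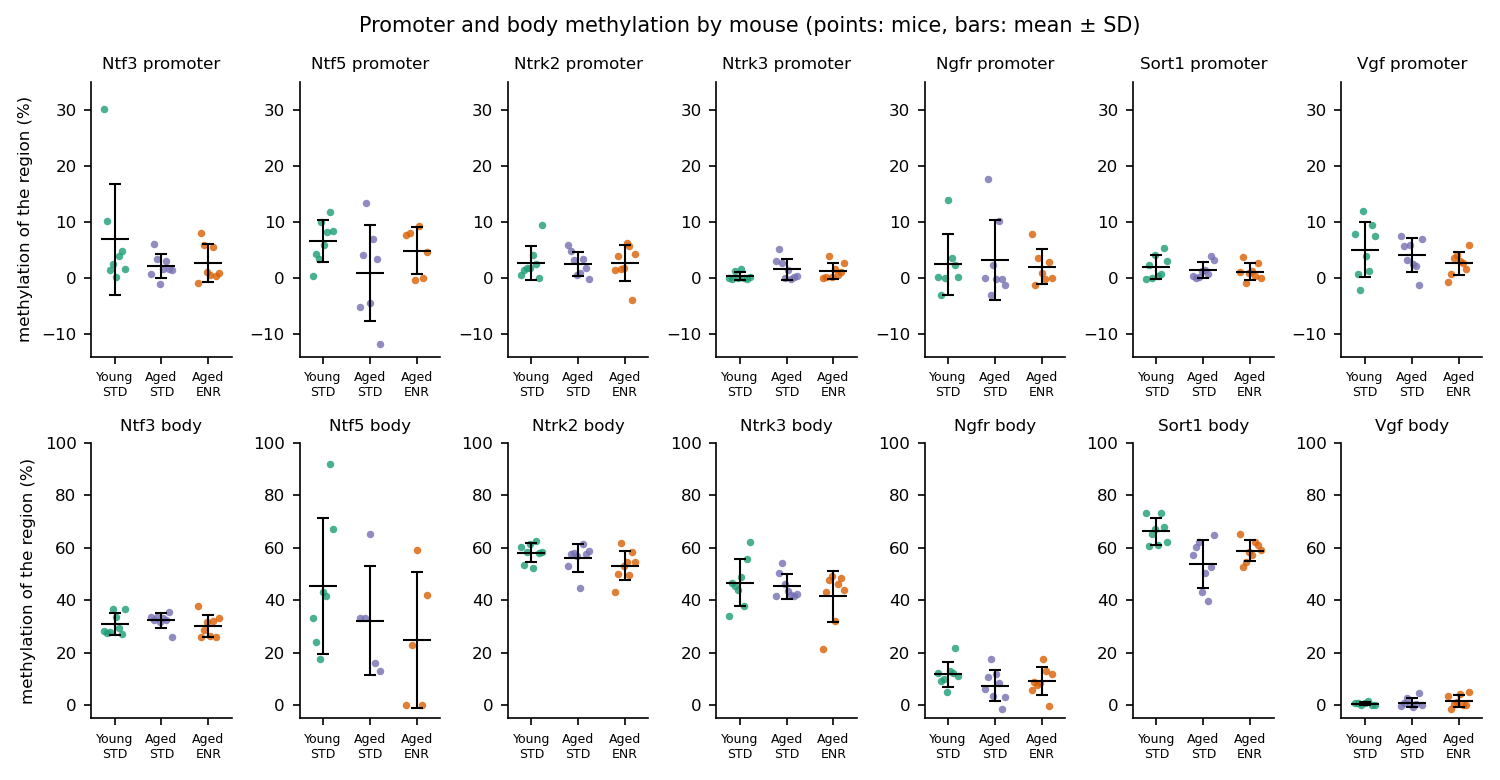
Methylation in percent of the promoter (upper row) and body (lower row) of each gene in each mouse, by group, with bars for mean ± SD over mice. The Sort1 body lies at 60.8 to 73.4% in Young STD mice and at 39.9 to 65% in Aged STD, and the groups overlap in all 14 regions.

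Of the ligands, the Ntf3 promoter had a lowest, median and highest value of 0.152, 3.30 and 30.2% in Young STD. In Aged STD these were −1.08, 1.71 and 6.02%, and in Aged ENR −0.928, 0.951 and 8.12%. The groups overlapped, and Young STD replicate 1 stood far above the next mouse, at 10.1%. The aging difference was −4.76 ± 3.01 points (SE, n = 8 and 8; adjusted p = 0.883, limma), and −1.43 points without that mouse. At the second Ntf3 start this mouse had 100% at 4 neighbouring cytosines, from 126164909 to 126164921, where the means of Aged STD were 0%. The ENR difference was 0.551 ± 3.01 points (adjusted p = 1). With each mouse left out in turn the aging difference ran from −5.72 to −1.43 points and the ENR difference from −0.226, without Aged ENR replicate 2, to 1.11 points. With the promoter at the gene start only the differences were −1.84 and 1.11 points, and the ENR difference was 1.33 points with a plain mean and −0.182 points on cytosines with 5 or more mice per group.

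The Ntf3 body was at 30.9 ± 4.14% in Young STD mice, 32.4 ± 2.83% in Aged STD and 30.3 ± 4.24% in Aged ENR (SD, n = 8 each). The differences of 1.40 ± 1.88 and −2.07 ± 1.88 points (SE) had adjusted p-values of 0.928 and 0.953. They ran from 0.888 to 2.33 points, the latter without Aged STD replicate 8, and from −3.15, without Aged ENR replicate 1, to −1.45 points. With a plain mean they were 2.68 and −1.25 points, and with promoters at the gene start only −0.753 and −1.29 points, which turned the sign for aging.

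The Ntf5 promoter had a lowest, median and highest value of 0.399, 7.12 and 11.8% in Young STD mice (n = 8). In Aged STD these were −11.8, 3.34 and 13.4% (n = 7), and in Aged ENR −0.252, 6.18 and 9.28% (n = 6). Of the Aged STD mice 3 lay below every Young STD mouse, all with values under 0%, and 1 lay above them all. Their spread was thus wider, and the groups overlapped. The aging difference was −5.62 ± 2.97 points (SE; adjusted p = 0.883) and the ENR difference 3.96 ± 3.19 points (adjusted p = 0.953). With each mouse left out in turn the aging difference ran from −7.70 to −3.49 points and the ENR difference from 1.84 to 6.04 points. The small values were those without Aged STD replicate 8, and the large ones those without Aged STD replicate 3 (adjusted p = 0.798 and 0.955). With the promoter taken at the gene start only, the differences were −9.60 and 7.18 points (adjusted p = 0.753 and 0.954). With a plain mean they were −3.48 and 0.694 points, and with at least 5 cytosines per region and mouse the aging difference was −3.72 points. Restricted to the 3 cytosines with a value in 5 or more mice per group, the aging difference was −22.0 points (adjusted p = 0.884) and the ENR difference 12.0 points (adjusted p = 0.945). The Ntf5 body rests on 3 cytosines and had 45.6 ± 25.9% in Young STD mice (SD, n = 7), 32.2 ± 20.8% in Aged STD (n = 5) and 24.9 ± 26.1% in Aged ENR (n = 5). Its differences of −13.4 ± 13.8 and −7.28 ± 14.9 points (SE) had adjusted p-values of 0.907 and 0.978. The aging difference ran from −21.7 points without Aged STD replicate 6 to −5.71 points without Young STD replicate 6. The ENR difference ran from −15.9 points without Aged ENR replicate 5 to 0.983 points without Aged STD replicate 6, which turned its sign. With promoters at the gene start only the aging difference was −7.91 points.

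Of the receptors, the Ntrk2 promoter had means of 2.74 ± 3.01, 2.56 ± 2.12 and 2.65 ± 3.22% in Young STD mice, Aged STD and Aged ENR (SD, n = 8 each). The differences were −0.18 ± 1.43 points for aging and 0.0887 ± 1.43 points for ENR, the smallest of the 14 regions in both comparisons (adjusted p = 1 in both). With each mouse left out in turn they ran from −0.659 to 0.789 and from −0.432 to 1.01 points, so neither kept its sign. Under the other settings they lay between −0.918 and 0.679 and between −0.735 and 2.01 points. The Ntrk2 body had 58.1 ± 3.59, 56.1 ± 5.19 and 53.3 ± 5.70%. The aging difference of −2.02 ± 2.42 points (SE; adjusted p = 0.917) and the ENR difference of −2.86 ± 2.42 points (adjusted p = 0.953) were within the spread between mice. Without Aged STD replicate 5 these were −0.376 and −4.51 points (adjusted p = 1 and 0.926), and without Aged ENR replicate 1 the ENR difference was −1.43 points. Over all mice left out in turn the ranges were −2.84 to −0.376 and −4.51 to −1.43 points. On cytosines with 5 or more mice per group the differences were −4.46 and −0.0166 points, and with a plain mean −3.57 and −4.31 points.

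The Ntrk3 promoter had 0.373 ± 0.716% in Young STD mice, 1.58 ± 1.91% in Aged STD and 1.29 ± 1.45% in Aged ENR (SD, n = 8 each). Of the Aged STD mice 3 lay above every Young STD mouse, and the aging difference was 1.21 ± 0.802 points (SE; adjusted p = 0.883), or 0.699 points without Aged STD replicate 2 and up to 1.46 points without another mouse. The ENR difference was −0.291 ± 0.802 points (adjusted p = 0.989), and from −0.681 to 0.22 points with each mouse left out, the latter again without Aged STD replicate 2. On cytosines with 5 or more mice per group the ENR difference was −0.136 points. The Ntrk3 body had a lowest, median and highest value of 34.0, 45.9 and 62.3% in Young STD mice, of 41.7, 42.9 and 54.2% in Aged STD and of 21.4, 45.1 and 49.4% in Aged ENR. Its differences of −1.51 ± 4.0 and −3.73 ± 4.0 points had adjusted p-values of 0.975 and 0.953. The aging difference ran from −3.33 points without Young STD replicate 1 to 0.706 points without Young STD replicate 8, which turned its sign. The ENR difference ran from −4.85 points to −0.847 points without Aged ENR replicate 1. On cytosines with 5 or more mice per group the differences were 3.26 and −0.896 points, which turned the sign for aging. With a plain mean they were −9.80 and −0.309 points (adjusted p = 0.973 and 1), and with promoters at the gene start only −0.662 and −2.37 points.

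The Ngfr promoter had 2.45 ± 5.43% in Young STD mice (n = 7), 3.22 ± 7.08% in Aged STD (n = 8) and 2.01 ± 3.13% in Aged ENR (n = 7). Its differences were 0.77 ± 2.82 and −1.20 ± 2.82 points (adjusted p = 0.987 and 0.983). The aging difference was −1.30 points without Aged STD replicate 2 and 2.67 points without Young STD replicate 4, and 3 of the mice turned its sign when left out. It was 1.21 points with replicate number as a block. The ENR difference ran from −2.19 points to 0.87 points without Aged STD replicate 2. The Ngfr body had a lowest, median and highest value of 5.22, 11.5 and 22% in Young STD mice, of −1.43, 7.21 and 17.4% in Aged STD and of −0.36, 8.61 and 17.6% in Aged ENR. Of the Aged STD mice 3 were below every Young STD mouse, and the difference of −4.35 ± 2.64 points had an adjusted p of 0.883, with a range of −5.77 to −2.90 points over the mice left out in turn. The ENR difference was 1.66 ± 2.64 points (adjusted p = 0.973), with a range of 0.383 to 3.08 points, without Aged STD replicates 7 and 3. On the 7 cytosines with 5 or more mice per group the aging difference was −8.40 and the ENR difference −4.58 points.

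Vgf had a promoter level of 5.05 ± 4.86% in Young STD mice, 4.13 ± 2.98% in Aged STD and 2.64 ± 2.03% in Aged ENR (SD, n = 8 each). The differences of −0.921 ± 1.74 and −1.49 ± 1.74 points had adjusted p-values of 0.958 and 0.962. They ran from −1.95 points to 0.0556 points without Young STD replicate 4, and from −2.26 to −1.0 points. On cytosines with 5 or more mice per group they were −2.33 and −3.18 points, and the aging difference was −2.02 points with a plain mean. The Vgf body was at 0.615 ± 0.578% in Young STD mice (n = 7), 1.02 ± 1.87% in Aged STD and 1.63 ± 2.35% in Aged ENR, and its differences were 0.403 ± 0.995 and 0.616 ± 0.962 points (adjusted p = 0.972 and 0.973). They ran from −0.141 points without Aged STD replicate 7 to 0.639 points, and from 0.145 points without Aged ENR replicate 8 to 1.16 points. With promoters at the gene start only both turned their sign, at −0.425 and −0.868 points. With a plain mean the aging difference was 0.711 points, and the ENR difference was −0.047 points on cytosines with 5 or more mice per group.

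The Sort1 body had the smallest p of the 14 regions. Its lowest, median and highest value was 60.8, 66.1 and 73.4% in Young STD mice, 39.9, 54.9 and 65% in Aged STD and 52.8, 58.8 and 65.2% in Aged ENR. Of the 8 Aged STD mice 6 lay below every Young STD mouse, and the other two lay inside the Young STD range. The aging difference was −12.5 ± 3.13 points (SE, n = 8 and 8), with an unadjusted exact permutation p of 0.00295 and the 35th smallest limma p of 30830 regions. The adjusted p was 0.533, so the region was not called. The ENR difference was 5.07 ± 3.13 points (adjusted p = 0.953), and 1 Aged ENR mouse lay above every Aged STD mouse. With a plain mean of covered cytosines it was −0.197 points. Leaving out each mouse in turn gave aging differences from −14.1 to −10.5 points with adjusted p-values from 0.229 to 0.677, and −12.0 points without Aged STD replicate 5. For ENR they ran from 3.08 points without Aged STD replicate 6 to 6.67 points without Aged STD replicate 8, with unadjusted limma p-values from 0.0389 to 0.294 and adjusted ones from 0.926 to 0.974.

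The difference in the Sort1 body rested on cytosines covered in few mice. Restricted to cytosines with a value in 5 or more mice per group, only 4 cytosines of intron 1 were left, with differences of 1.36 points for aging and −2.47 points for ENR. Of the 31 body cytosines 21 had a lower mean in Aged STD than in Young STD mice, 7 a higher and 3 the same mean. At 8 of them the mean was lower by over 25 points and at none higher by as much, and for ENR 7 were higher and none lower by as much. These were 25.8% and 22.6% of the Sort1 body cytosines, against 14.5% and 13.5% of all body cytosines differing by over 25 points in either direction. At the Sort1 promoter the means were 1.98 ± 2.07, 1.41 ± 1.46 and 1.18 ± 1.48% (SD, n = 8 each), with differences of −0.577 ± 0.91 and −0.23 ± 0.91 points (adjusted p = 0.943 and 0.996). With each mouse left out they ran from −0.941 to −0.0939 points, the latter without Young STD replicate 7, and from −0.605 to 0.134 points, the latter without Aged STD replicate 7. On cytosines with 5 or more mice per group the ENR difference was −0.442 points.

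Along Sort1, among stretches of at least 3 cytosines, the Aged STD mean lay furthest below that of Young STD mice at 3 stretches from intron 9 to intron 11. They are given as a description, since they were chosen after their values were seen. At intron 9 and exon 10 the 5 cytosines printed above had 49.8 ± 18.6% in Young STD mice (SD, n = 6), 28.1 ± 24.2% in Aged STD (n = 8) and 42.1 ± 19.5% in Aged ENR (n = 6). At intron 10 and exon 11 the 7 cytosines had 93.8 ± 8.10% (n = 6), 64.2 ± 38.2% (n = 7) and 88.6 ± 6.13% (n = 5), and the spread in Aged STD was wide because replicates 4, 5 and 6 had 4.9, 32.5 and 43.2% whereas the other 4 had 71.5 to 104.9%. At intron 11 the 3 cytosines had 40.1 ± 19.1% (n = 5), 9.63 ± 13.2% (n = 6) and 7.06 ± 13.4% (n = 6), so that both aged groups were low there. Outside these stretches, intron 1 had 9.74, 10.4 and 7.93%, coding exon 16 had 96.3, 95.8 and 100% and the 3′ UTR had 96.0, 86.6 and 90.0% in Young STD mice, Aged STD and Aged ENR. A single cytosine of intron 1, 4990 bases from the start, had 38.1, 28.7 and 8.36% in the same order, whereas 2 further cytosines of intron 1 had 36.2, 49.6 and 40.3% and 2 of intron 10 had 100, 92.5 and 100%.

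**Figure D4:**
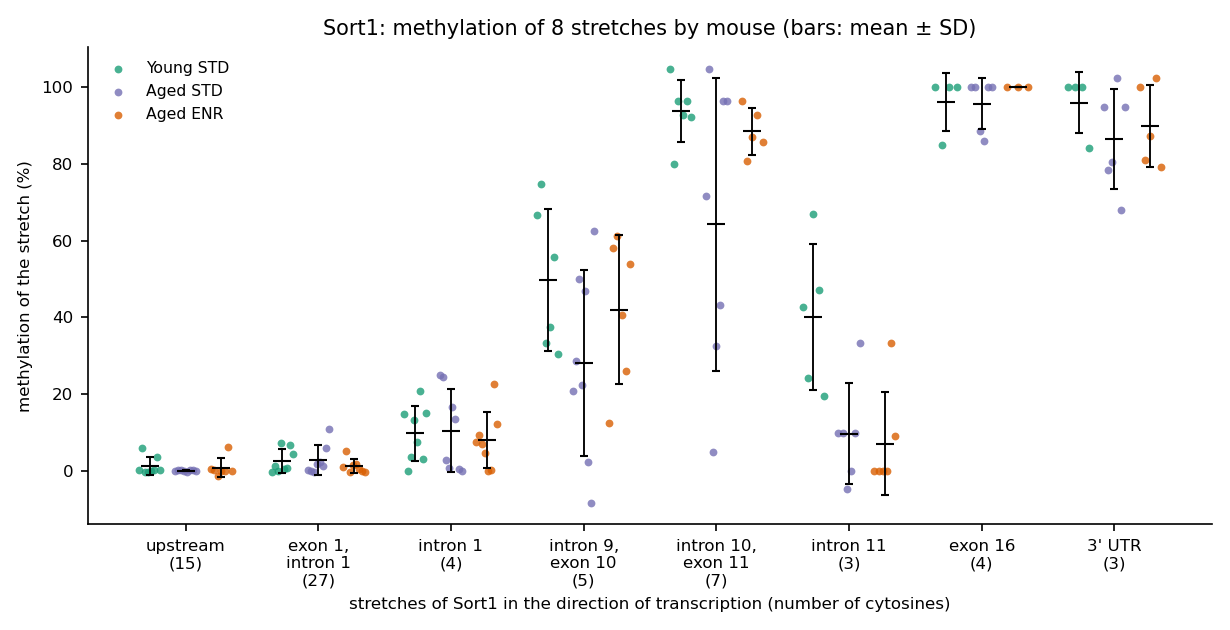
Methylation in percent of the 8 stretches of Sort1 with at least 3 cytosines in each mouse (points), from upstream of the start to the 3′ UTR, with bars for mean ± SD and the number of cytosines in brackets. Aged STD mice spread widely at intron 10 and exon 11, from 4.9 to 104.9%, both aged groups lie low at intron 11, and the promoter stretches and exon 16 show no such spread.

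**Figure D5:**
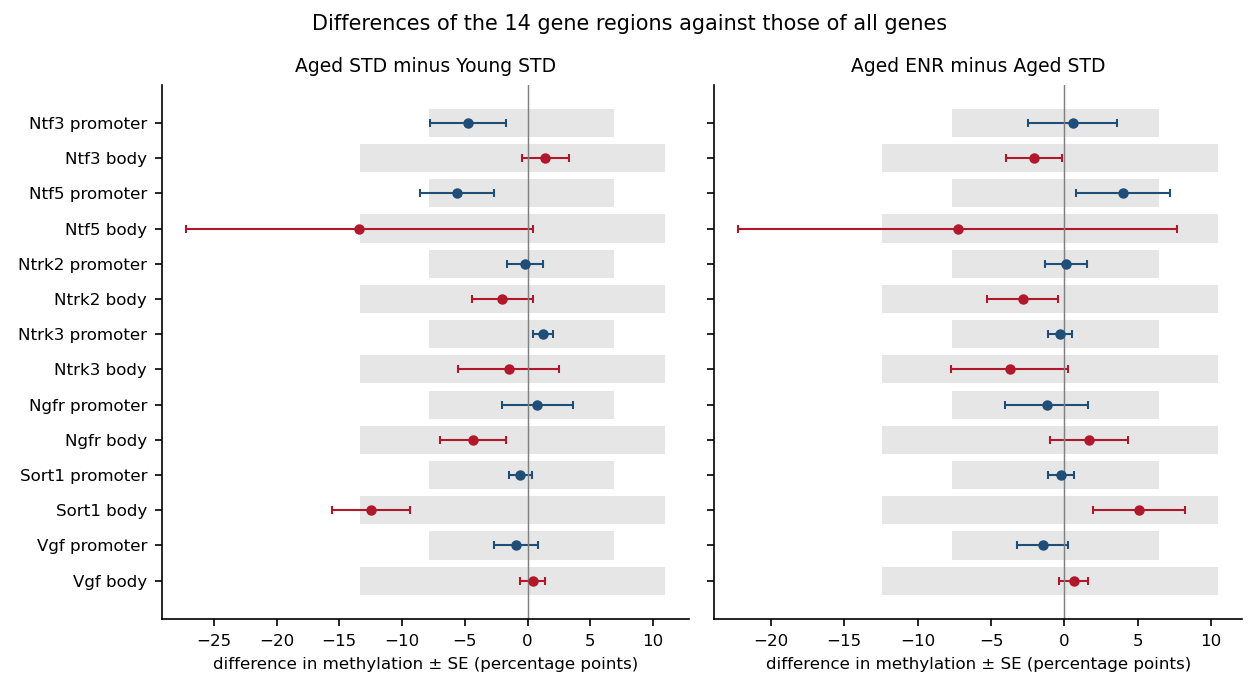
Aging differences (left) and ENR differences (right) of the 14 regions in percentage points ± SE (promoters blue, bodies red), with grey bars for the range from the 5th to the 95th percentile of all promoters or all bodies. Every difference lies inside its grey bar except the aging difference of the Ntf5 body, −13.4 points with an SE of 13.8, which lies at the lower end of its bar.

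Single cytosines were compared in the same way over the whole table. None of the 479 was called in either comparison by limma, and of all cytosines 0.0049% were called for aging and 0.00446% for ENR. At an unadjusted p under 0.05 there were 14 for aging, 3 higher and 11 lower in Aged STD, and 5 for ENR, 2 higher and 3 lower in Aged ENR. Of all cytosines 2.23% and 1.9% reached this. The Sort1 body held 5 of the 14 and Ntf5 held 3, all of these lower in Aged STD.

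By size alone, without a test, 42 of the 479 cytosines differed by over 25 points between Aged STD and Young STD, which is 8.77% against 9.16% of all cytosines. Of these 14 were higher in Aged STD, against 4.15% of all cytosines, and 28 lower, against 5.01%. Between Aged ENR and Aged STD 43 differed by as much, or 8.98% against 8.33%, with 20 higher, against 3.82%, and 23 lower, against 4.51%. Of the 225 promoter cytosines 3.11% differed for aging and 1.78% for ENR, against 4.47% and 3.92% of all promoter cytosines. Of the 249 body cytosines 13.7% and 15.3% differed, against 14.5% and 13.5%. By gene, the shares for aging were 12.7% in Ntrk3, 12.3% in Sort1, 12% in Ntf5, 10.3% in Ntrk2, 8.22% in Ntf3, 3.49% in Vgf and 2.44% in Ngfr, where 35 of 41 cytosines were under 10%. For ENR they were 24% in Ntf5 (6 of 25 cytosines), 12.3% in Ntf3, 11.9% in Ntrk2 and 9.59% in Sort1. In Ntrk3 the ENR share was 5.45%, in Ngfr 4.88% and in Vgf 1.16%.

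The cytosine named for each gene is that with the smallest limma p among those covered in at least 5 mice of each group. In Ntf5 this was 45415084 on the minus strand, in intron 2, for both comparisons. Its lowest, median and highest value was 15, 68.6 and 100% in Young STD mice (n = 7). The 5 Aged STD mice had 0% in 4 and 16.7% in 1, and the 5 Aged ENR mice had 0, 0, 69.4, 70.3 and 100%. The aging difference of −66.4 ± 18.4 points (SE) had an exact permutation p of 0.0051 and an adjusted limma p of 1. The ENR difference was 44.6 ± 19.9 points, with an exact permutation p of 0.167. The neighbouring cytosines at 45415020 and 45415041 had means of 44.1 and 49.1% in Aged STD against 40.4 and 26.6% in Young STD mice, higher where the named cytosine was lower. For ENR, of the 3 Ntf5 body cytosines only the named 1 was higher in Aged ENR, and the other 2 were lower by over 25 points.

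In Ntrk2 the cytosine with the smallest p for aging was 58947178 on the minus strand, in intron 12. Its lowest, median and highest value was 0, 55.4 and 100% in Young STD mice, 0, 0 and 58.9% in Aged STD and 0, 22 and 72.6% in Aged ENR (n = 7 each). The aging difference was −39.0 ± 16.3 points (adjusted p = 1, exact permutation p = 0.0437). For ENR it was 58810142 on the minus strand, in intron 2, with 0% in all 7 Young STD mice, 23.8 and 34.2% in 2 of 6 Aged STD mice, and 1.41% as the highest of 7 Aged ENR mice. Its ENR difference was −9.46 ± 4.58 points (adjusted p = 1).

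In Ntrk3 these were 78699048 on the plus strand, in the span but in no exon, for aging, and 78198894 on the minus strand, in coding exon 18, for ENR. The first had 12.7 ± 20.8% in Young STD mice (SD, n = 5), 40.4 ± 37.1% in Aged STD (n = 5) and 28.4 ± 37.8% in Aged ENR (n = 6). The second had a median of 100% in every group, and the ENR difference was 11 ± 6.55 points (SE; adjusted p = 1). In Ngfr the cytosine at 95577745 on the plus strand, in intron 3, had 21.1 to 63.1% in all 7 Young STD mice, whereas 5 of 7 Aged STD mice and 4 of 8 Aged ENR mice had 0%. Its aging difference was −18.7 ± 10.5 points (adjusted p = 1, exact permutation p = 0.15). Its neighbour at 95577874 had the smallest ENR p, with 2.91 ± 6.50% in Aged STD (n = 5) and 15.8 ± 21.4% in Aged ENR (n = 8).

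In Ntf3 the cytosine with the smallest p for aging was 126164914 on the plus strand, at the second start, with 100 and 57.1% in 2 of 6 Young STD mice, 0% in all 7 Aged STD mice and up to 9.84% in Aged ENR. For ENR it was 126115381 on the minus strand, in intron 2, with 44.6 ± 45.1% in Aged STD and 8.51 ± 11.8% in Aged ENR (SD, n = 5 each; exact permutation p = 0.167). In Sort1, where few body cytosines were covered in 5 mice of each group, these were 108295925 in intron 1, with 21.2 ± 36.6% in Aged STD (n = 8) against 2.08 ± 5.51% in Young STD mice (n = 7), and 108284697 at the promoter, with 10.3 ± 20.05% in Aged STD (n = 8) against 1.52 ± 4.02% in Aged ENR (n = 7). In Vgf the cytosine at 137030979 on the minus strand, in the 5′ UTR of exon 5, had 36.1 ± 44.4% in Young STD mice (n = 7), 7.51 ± 14.3% in Aged STD (n = 7) and 0% in all 8 Aged ENR mice. The aging difference was −28.6 ± 13.9 points (SE; adjusted p = 1, exact permutation p = 0.135), and this was also the Vgf promoter cytosine with a value in the most mice. For ENR 137032710 in coding exon 5 had 19.6% in 1 Aged ENR mouse and 0% in every other mouse with a value.

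The promoter cytosine with a value in the most mice was near 0% in all groups for 5 genes. That of Sort1, 463 bases upstream of the start, was 0% in all 21 mice with a value. Those of Ntf3, Ntrk2, Ntrk3 and Ngfr were above 0% in 1 mouse each, with 4, 5, 3.17 and 33.3%. That of Ntf5 at 45413252, 443 bases upstream of the start, was 0% in all 8 Aged STD mice, above 0% in 4 of 8 Young STD mice with up to 46.7%, and above 0% in 1 of 6 Aged ENR mice with 33.3%. Its aging difference was −18.7 ± 7.57 points (adjusted p = 1, exact permutation p = 0.0769).

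Genes that act beside the members were counted from a list of 28, which holds the sortilin family, the adaptors of Trk and p75 receptors and enzymes that cut precursors. Of their 28 promoters and 16 bodies with enough cytosines none was called in either comparison. At an unadjusted p under 0.05 there were 1 promoter and 2 bodies for aging, all lower in Aged STD, and 1 promoter for ENR, lower in Aged ENR. These were 3 and 1 of 44 regions, against 5.5% and 4.66% of all regions. The smallest p for aging was that of the body of Sorl1, a relative of Sort1 in the sorting receptor family, with 57.2 ± 6.72% in Young STD mice, 46.5 ± 5.53% in Aged STD and 45.2 ± 8.59% in Aged ENR (SD, n = 8 each). Its aging difference was −10.8 ± 3.45 points (SE; adjusted p = 0.735). The next were the body of Lingo1, a partner of p75 in the Nogo receptor complex, with −9.77 ± 3.54 points (adjusted p = 0.836), and the promoter of Grb2, a Trk adaptor, with −2.30 ± 1.00 points (adjusted p = 0.883).

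For ENR the smallest p was that of the promoter of Maged1, a binding partner of p75, with 28.8 ± 19.0% in Young STD mice, 43.6 ± 25.2% in Aged STD and 15.1 ± 23.0% in Aged ENR (SD, n = 7 each) and a difference of −28.5 ± 11.7 points (SE; adjusted p = 0.953). The promoter of Crk, an adaptor, had 2.10 ± 1.11 points and the body of Sorcs2, a sortilin relative that binds p75, −4.98 ± 3.10 points (adjusted p = 0.953 each). Of the 1231 cytosines of the list 9.75% differed by over 25 points for aging and 7.96% for ENR, against 9.16% and 8.33% of all cytosines, and none was called.

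Methylation at genes that mark cell types was read beside these values, and its part in them was not tested. For 4 lists with 19 genes (neurons, oligodendrocytes, microglia, astrocytes) none of the measured promoters and bodies was called. At an unadjusted p under 0.05, 1 oligodendrocyte promoter and 1 astrocyte promoter were higher and 1 astrocyte body lower in Aged STD than in Young STD mice, and 1 promoter of each of these lists was lower in Aged ENR than in Aged STD. These were 3 and 2 of 25 regions, against 5.5% and 4.66% of all regions. By cytosine, 11.5% of those of neuron genes differed by over 25 points for aging and 13.7% for ENR. The shares were 4.1 and 5.74% for oligodendrocyte genes, 10.5 and 10.5% for microglia genes and 11.9 and 9.52% for astrocyte genes. Of all cytosines 9.16% and 8.33% differed by as much, and no cytosine of the lists was called. Averaged per mouse over the list, the bodies of neuron genes lay at 43.3 to 54.1% in Young STD mice. In Aged STD they lay at 41.0 to 48.1% and in Aged ENR at 41.9 to 46.1%. The bodies of oligodendrocyte genes lay at 44.3 to 93.3, 31.0 to 63.0 and 43.2 to 66.2%. Here and for the lists below, the mean of a mouse is over the genes with a value in that mouse only. Levels of the oligodendrocyte bodies run from 3.48 to 89.3%. The ranges thus also depend on which genes a mouse covered and do not compare the groups. The promoters of oligodendrocyte genes were higher by a median of 3.15 points in Aged STD than in Young STD mice and lower by a median of 4.13 points in Aged ENR than in Aged STD, over 3 promoters. The medians of these differences were 2.38 and −1.77 points for 3 astrocyte promoters, 0.985 and 0.16 points for 3 neuron promoters, and −0.76 and −10.6 points for 2 microglia promoters. The bodies of microglia genes lay at 46.8 to 76.1, 52.4 to 72.7 and 65.5 to 76.8%, and those of astrocyte genes at 23.5 to 45.6, 25 to 62.5 and 31.4 to 38.2%.

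Among the members, the Ntrk3 body had the largest spread over the 24 mice of the regions with a value in each, with an SD of 8.15 points. The regions whose pattern over mice was most like it, of 11796 compared, were the body of Fut9 (Pearson's r = 0.717), the promoter of Mta2 (r = 0.715) and the promoter of Ccdc13 (r = 0.684). These are the highest of many values and a description only, over mice whose depth is unknown.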

How the data were processed

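RRBS libraries of micro-dissected dentate gyrus from 24 mice, 8 per group, were analysed. The authors trimmed and mapped the reads to mm10 and called methylation, and deposited the percent methylation of each covered cytosine in each mouse. Per the labels the tools were Trim Galore 0.4.0, cutadapt 1.8.1, Bismark 0.16.1 and methylKit 1.5.2, and the study's methods give other versions for Trim Galore and Bismark. Bisulfite reads do not separate methylcytosine from hydroxymethylcytosine. The table holds no read numbers, so depth is unknown and percentages of few and many reads weigh the same.

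Cytosines were assigned with GENCODE M21, and sequences come from the RefSeq GRCm38.p6 genome, the same build as mm10. Promoters were within 1 kb of any transcript start. A region needed 3 cytosines per mouse and 3 mice per group. Group means of all regions and all cytosines were fitted with limma 3.58.1 in R 4.3.3, with Benjamini-Hochberg adjustment over the whole table, and single values were tested by two-sided exact permutation over mice (12870 relabelings for 8 against 8). Python 3.11.15 with numpy 2.4.6, pandas 2.3.3, scipy 1.17.1, pysam 0.24.0 and matplotlib 3.10.9 did the rest. On simulated data with 200 regions changed by 25 points, 182 were recovered for aging and 184 for ENR, with 23 and 12 false calls among 30830 regions. With 200 of 223328 cytosines changed by 50 points, 165 and 162 were recovered, with 2 and 8 false calls. That simulation ran on cytosines with 5 mice in each group, which 162 of the 479 member cytosines have, and not on all 694379. In both simulations the changed rows had low mean levels and were raised in Aged STD only. Losses in Aged STD, and changes at intermediate or high levels such as that of the Sort1 body, were thus not simulated. The largest difference of the 14 regions, −13.4 points for aging in the Ntf5 body, was smaller than the simulated 25 points.

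The cytosines named for each gene were those with the smallest p for aging and for ENR among those with 5 mice in each group, and the promoter cytosine with the most mice. For the region with the largest spread over all 24 mice, the 3 most correlated regions were named. Members and lists were chosen with earlier results of these data known. Nothing in the labels says that mice were littermates or shared a batch, and batches were not analysed here. Per the study's methods, enriched mice shared an enclosure and control mice were kept in groups in cages. The cage of each mouse is not given here. Mice of a group may thus not be independent, and a shared enclosure and enrichment cannot be told apart. The sequence of 1 promoter window is not reported here.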

Additional observations from a re-analysis of the deposited data

Results flagged for a closer look

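In 21 of 99 groups of 4 to 10 mice, 1 mouse lay far from the others, with a gap above Dixon's 95% critical value. Chance gives about 1 in 20 groups where values vary without ties. In 11 of the 21 every other mouse of the group was at 0%, where any value above 0% passes, so that rate does not apply to them.

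In the Ntf3 promoter, Young STD replicate 1 had 30.2%, whereas the other mice of its group had 0.152 to 10.1%. In the Ntf3 body, Aged STD replicate 8 had 25.9%, whereas the other mice of its group had 31.8 to 35.4%. In the Ntrk2 promoter, Young STD replicate 8 had 9.52%, whereas the other mice of its group had −0.06 to 4.17%. In the Ngfr promoter, Young STD replicate 4 had 13.8%, whereas the other mice of its group had −3.01 to 3.6%. In the Ngfr body, Young STD replicate 7 had 22%, whereas the other mice of its group had 5.22 to 13.1%.

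Aged ENR replicate 7 had 4% at the Ntf3 cytosine at 126164963, against 0% in the others of its group. Aged STD replicate 6 had 16.7% at the Ntf5 cytosine at 45415084, against 0% in the others of its group. Aged ENR replicate 8 had 33.3% at the Ntf5 cytosine at 45413252, against 0% in the others of its group. Aged ENR replicate 4 had 1.41% at the Ntrk2 cytosine at 58810142, against 0% in the others of its group. Aged STD replicate 6 had 5% at the Ntrk2 cytosine at 58806650, against 0% in the others of its group. Aged ENR replicate 3 had 100% at the Ntrk3 cytosine at 78699048, against 0 to 37.3% in the others of its group. Young STD replicate 4 had 60.5% at the Ntrk3 cytosine at 78198894, against 87.6 to 100% in the others of its group. Aged ENR replicate 4 had 88.2% at the Ntrk3 cytosine at 78198894, against 97.8 to 100% in the others of its group. Aged ENR replicate 8 had 3.17% at the Ntrk3 cytosine at 78577393, against 0% in the others of its group. Aged STD replicate 6 had 14.5% at the Ngfr cytosine at 95577874, against 0% in the others of its group. Aged ENR replicate 7 had 33.3% at the Ngfr cytosine at 95587812, against 0% in the others of its group. Young STD replicate 3 had 14.6% at the Sort1 cytosine at 108295925, against 0% in the others of its group. Aged STD replicate 8 had 56.1% at the Sort1 cytosine at 108284697, against 0 to 22.2% in the others of its group. Aged ENR replicate 4 had 10.6% at the Sort1 cytosine at 108284697, against 0% in the others of its group. Aged STD replicate 1 had 37.3% at the Vgf cytosine at 137030979, against 0 to 15.2% in the others of its group. Aged ENR replicate 8 had 19.6% at the Vgf cytosine at 137032710, against 0% in the others of its group.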

How the results depend on the processing

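No region of the 7 genes was called in either comparison under any alternative with limma, and leaving out each mouse in turn kept the count at 0, with smallest adjusted p-values from 0.229 to 0.677 for aging and from 0.926 to 0.974 for ENR. The unadjusted exact permutation test passed 1 region for aging, the Sort1 body. Of 860 values of single regions under alternatives, 6 moved by more than the spread between mice and 40 changed sign, none of them called. The Sort1 body difference for aging, −12.5 points, was 1.36 points with only its 4 cytosines covered in at least 5 mice of each group; fewer cytosines and another part of the gene enter that value.

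No cytosine was called by limma, except that the fit with a replicate block called 1 for aging and 1 for ENR. This was in both cases the Ntrk2 cytosine at 58806123, covered in 12 mice, where the block left no residual spread, with differences of −25 and 25 points in the block fit against −11.7 and 16.7 points without it. In all, the block called 600 and 533 cytosines of 688807, against 34 and 31 without it. Same-numbered mice are different animals, their deviations had a mean correlation of −0.00387, and 0 of 24 mice correlated best with their own number. The block changed no other call among the 479 cytosines and 14 regions.

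The 42 cytosines over 25 points for aging were 12 of 162 with at least 5 mice in each group and 66 with a limit of 20 points. The 43 for ENR were 9 of 162 with at least 5 mice. The shares of all cytosines under these limits were not computed, so these numbers cannot be set against the whole table. The part of read depth in these counts cannot be assessed without read numbers.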
